A study of Mus musculus with 4 samples.

Results

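Fatty acid and sterol metabolism was described through 34 genes, named by symbol, that make and modify fatty acids, build cholesterol, sense sterols or move them. A gene was measured by the Affymetrix probe set annotated with that symbol alone, taking the one with the highest mean over the arrays where there were several. Of the 34 genes, 33 had such a probe set, out of 19938 genes measured in the same way. Nr1h2 had no value and was not analysed here. The samples were CD4+ lymphoma cells from spleens of homozygous Tet2 gene trap animals (2 arrays) and CD4+ splenocytes of wild type mice (2 arrays), all on a C57BL/6 background. Tet2 oxidises methylated cytosine in DNA, and a gene trap is a cassette whose insertion cuts the transcript short. In both groups red cells of the spleen suspension had been lysed and CD4+ cells bound by an antibody and held on a magnetic column. Since every lymphoma carries the gene trap, genotype and malignancy cannot be told apart, no age or column purity is given in the sources used here, and nothing says whether the arrays of a group came from separate mice, so p-values measure the spread between these samples.

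Cells make saturated fatty acids from acetyl-CoA, lengthen them with elongases and add double bonds with desaturases, while a separate route of many steps through mevalonate builds cholesterol. Sterol regulatory element-binding proteins (SREBPs) are membrane-bound transcription factors that are released when sterols are scarce and switch on both routes. Liver X receptors (LXRs) are nuclear receptors that oxysterols activate, and they switch on sterol export and, in liver, Srebf1 and Scd1. T cells draw on both routes for new membrane when they divide.

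The 4 arrays were alike in overall signal, with a median intensity of 138 and 130 in the lymphoma samples and 142 and 141 in the wild type samples, and log2 values correlated between 0.95 and 0.98 across probe sets for every pair of arrays. Tet2 had an intensity of 596 and 399 in the lymphoma samples, against 980 and 1016 in the wild type samples. Its log2 difference was -1.03 (SE 0.24, adjusted p = 0.077 in limma), and lay between -1.32 and -0.74 with 1 array left out. The T cell markers (7 of 8 measured) had a summed intensity of 29406 and 30126 in the lymphoma samples and of 25335 and 25282 in the wild type samples. Of these 7 markers, 5 had a positive and 2 a negative difference, and none was called. At an adjusted p under 0.05 in limma, 7 of 9 measured B cell markers were lower, against 2.46% of all genes. So were 8 of 11 markers of macrophages and monocytes and 6 of 8 of dendritic cells. Every measured marker of these cell types had a negative difference. Their summed intensities were 2634 to 3272 for B cells, 2682 to 3661 for macrophages and monocytes and 775 to 803 for dendritic cells in the lymphoma samples. On the wild type arrays these sums were 13787 to 20392, 9998 to 10652 and 4245 to 5070. No marker was listed at 0. In such bulk samples fewer cells of a type and less RNA per cell cannot be told apart, and the part of these cells in any difference given here was not tested.

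Among the fatty acid and sterol genes, 2 of the 33 measured were lower in lymphoma, Scd1 and Mylip, and none was higher (limma, adjusted p under 0.05 over all 19938 genes). These 2 are 6.06% of the measured members, against 4.27% of all genes called in either direction, 2.46% called lower and 1.82% called higher. At an unadjusted p under 0.05, 2 members were higher and 5 lower, or 21.2% of the members against 15.6% of all genes. Without Scd1, 1 of 32 members was called lower and 18.75% had an unadjusted p under 0.05. The median log2 difference of the 33 genes was 0.089, that of all genes was -0.039, and leaving Scd1 out left the members' median at 0.091. Of the 33 genes, 30 differed by less than 1 log2 unit, as did 93.8% of all genes. The exceptions among the members were Scd1, Mylip and Fads2. With 2 arrays in each group an exact two-sided permutation test of a single gene cannot go below p = 0.333, so the calls rest on a spread shared across genes. Both calls were lost without wild type array 1, where limma called 0 of the 19938 genes (2308 at an unadjusted p under 0.05), and likewise in the absence of wild type array 2 (0 called, 2049 at an unadjusted p under 0.05).

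**Figure D1:**
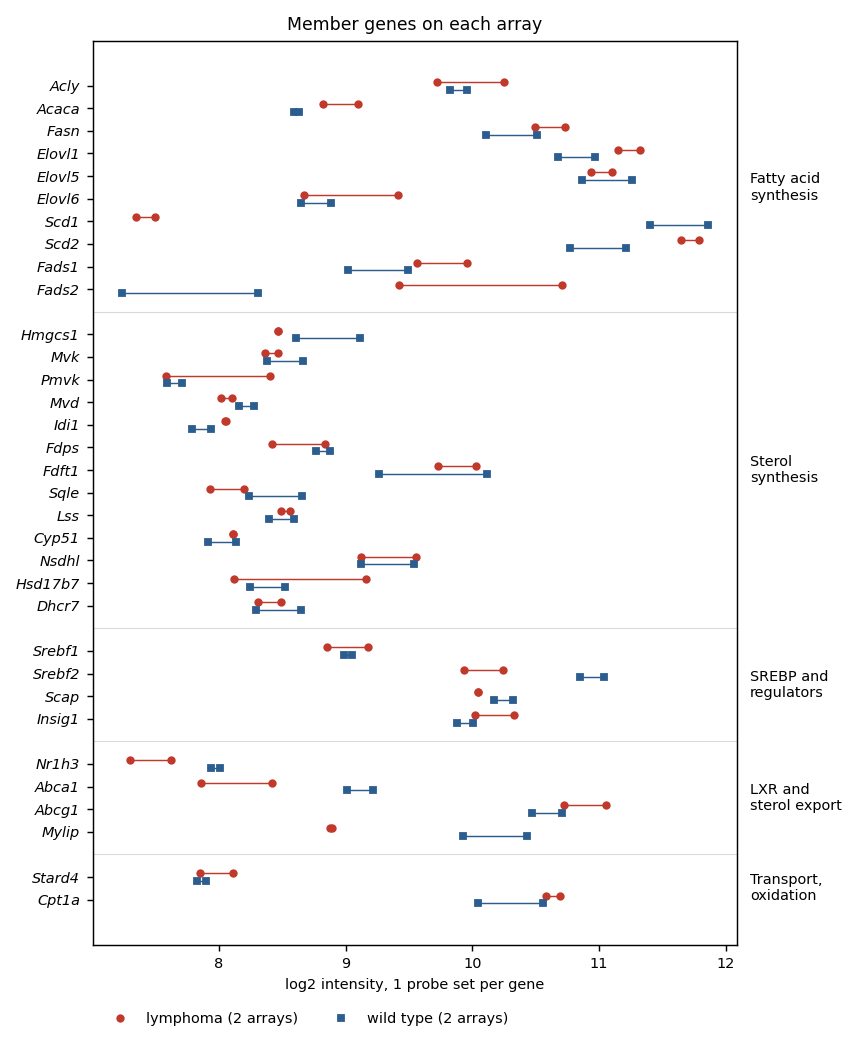
Log2 intensity of each of the 33 measured genes (x axis) on the 2 lymphoma arrays (red circles) and the 2 wild type arrays (blue squares), with a line joining the arrays of a group, genes grouped by role. Scd1 lies far lower on both lymphoma arrays, while most genes of sterol synthesis have overlapping groups.

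In fatty acid synthesis the 1 gene that passed the test was a desaturase. Scd1, which encodes a stearoyl-CoA desaturase that places the double bond of oleate and palmitoleate, had an intensity of 180 and 162 in the lymphoma samples, against 3713 and 2705 in the wild type samples. Both lymphoma values lay far under both wild type values. On the log2 scale its level was 7.42 ± 0.11 in lymphoma and 11.63 ± 0.32 in wild type (SD, n = 2 each), an 18.5-fold lower signal with a log2 difference of -4.21 (SE 0.22, 95% interval -4.74 to -3.68, adjusted p = 0.0013 in limma). Only 13 of the 19938 genes had a more negative difference. Without wild type array 1 the difference was -3.98 (adjusted p = 0.062) and without wild type array 2 it was -4.44 (adjusted p = 0.051). No detection calls were used here, so how far the lymphoma signal of Scd1 lies above background is unknown and the fold may be understated.

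Scd2, the desaturase gene that is closely related to Scd1, was not lower. Its intensity was 3538 and 3214 in the lymphoma samples and 2376 and 1742 in the wild type samples, so both lymphoma values lay above both wild type values. The log2 difference was 0.73 (SE 0.20, 95% interval 0.24 to 1.21, adjusted p = 0.13 in limma). In the RefSeq gene order of mouse chromosome 19, Scd3, Scd2, Scd4 and Scd1 are consecutive protein-coding genes, between Pkd2l1 and Wnt8b. The log2 differences of the neighbours, which were looked at after that of Scd1 was known, were 0.097 for Scd3 (adjusted p = 0.89), -0.18 for Scd4 (0.85), -0.0051 for Pkd2l1 (0.996) and -0.10 for Wnt8b (0.90). None of these 4 genes or Scd2 passed the test, and Scd1 was the only called gene of the run. How well the probes tell the transcripts of the related Scd genes apart is unknown here. Scd3 and Scd4 changed sign when 1 array was left out, with ranges of -0.012 to 0.21 for Scd3 and -0.45 to 0.092 for Scd4.

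Fads2, a desaturase that starts the conversion of essential fatty acids to long polyunsaturated ones, had the largest positive difference of the members. Its intensity was 684 and 1667 in the lymphoma samples, against 317 and 150 in the wild type samples. The groups did not overlap, but the arrays within each group stood more than 1 log2 unit apart (1.29 in lymphoma and 1.07 in wild type). The log2 difference was 2.29 (SE 0.50, 95% interval 1.07 to 3.51, adjusted p = 0.069 in limma), a 4.89-fold higher signal that did not pass. The difference of Fads2 was 2.93 with lymphoma array 1 left out and 1.65 with lymphoma array 2 left out. In these fits 1 array stands for the lymphoma group. The spread then comes from the wild type pair and from that shared across genes.

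Fads1, the partner desaturase of Fads2 in that conversion, had 756 and 994 in the lymphoma samples and 719 and 518 in the wild type samples, a log2 difference of 0.51 (SE 0.24, adjusted p = 0.41 in limma). Both lymphoma values lay above both wild type values here too. Fads3, a related gene outside the members, differed by -0.58 (adjusted p = 0.25). The desaturases therefore gave differences of either sign, of which only that of Scd1 passed.

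**Figure D2:**
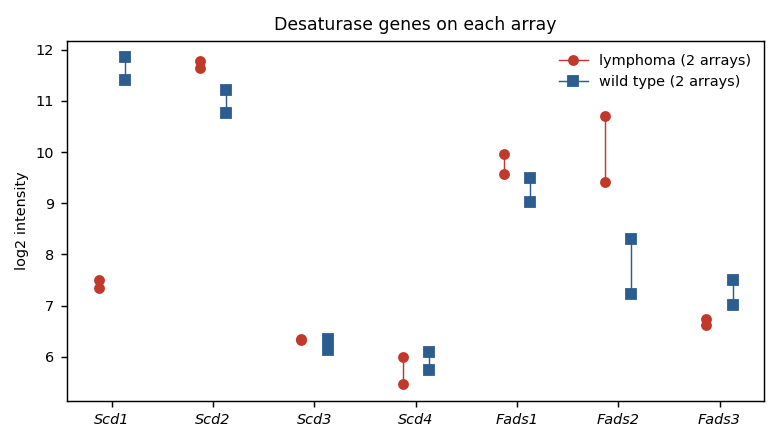
Log2 intensity (y axis) of the stearoyl-CoA desaturase genes Scd1 to Scd4 and the polyunsaturated fatty acid desaturase genes Fads1 to Fads3 on the 2 lymphoma arrays (red circles) and the 2 wild type arrays (blue squares), joined by a line within a group. Scd1 is lower on both lymphoma arrays, and Fads2 has the widest spread within groups; levels of different genes come from different probe sets and cannot be compared.

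None of the enzymes that supply the desaturases passed the test. Acly, which makes cytosolic acetyl-CoA from citrate, had 844 and 1216 in the lymphoma samples and 904 and 996 in the wild type samples, with overlapping groups and a log2 difference of 0.094 (SE 0.23). Acaca, the carboxylase that makes malonyl-CoA, had 548 and 452 in the lymphoma samples and 397 and 386 in the wild type samples, a log2 difference of 0.35 (SE 0.19). Fasn, the fatty acid synthase, had 1700 and 1439 in the lymphoma samples and 1456 and 1102 in the wild type samples, a log2 difference of 0.30 (SE 0.21) with overlapping groups. The adjusted p-values of these 3 genes in limma were 0.92, 0.49 and 0.62. With 1 array left out their differences lay between -0.17 and 0.36 for Acly, which changed sign without lymphoma array 2, between 0.21 (without lymphoma array 1) and 0.48 for Acaca, and between 0.10 (without wild type array 2) and 0.51 for Fasn.

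Of the elongases, which add carbons to the chain, Elovl1 differed by 0.41 (SE 0.18, adjusted p = 0.36 in limma), with 2266 and 2558 in the lymphoma samples above 2005 and 1634 in the wild type samples. Elovl5, which acts on polyunsaturated chains, differed by -0.041 (SE 0.20) and Elovl6, which lengthens palmitate to stearate, by 0.28 (SE 0.28), both with overlapping groups. Elovl6 had an intensity of 683 on lymphoma array 1 and 408 on lymphoma array 2, against 471 and 400 in the wild type samples, and its difference was -0.090 without lymphoma array 1. Over the 10 genes of fatty acid synthesis, 1 was lower and none higher, and 2 had an unadjusted p under 0.05 towards higher. In either direction 30% had such a p, against 15.6% of all genes. Of the 9 genes other than Scd1, 8 were on the positive side, against 8741 of all 19938 genes. The median log2 difference of the 10 genes was 0.33. This median was 0.21 without wild type array 2 and at most 0.45 in the other fits that left out an array.

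Genes of the sterol route did not pass in either direction. Of 13 measured genes from Hmgcs1 to Dhcr7, none was called in limma and none had an unadjusted p under 0.05, against 15.6% of all genes. Their log2 differences lay between -0.39 and 0.35 with a median of 0.0082, 7 positive and 6 negative. The 95% intervals of the single genes, not adjusted for their number, reached from -0.94 at the lowest (Hmgcs1) to 1.11 at the highest (Hsd17b7). All lay above the difference of Scd1 (-4.21), but those of Hmgcs1 and Sqle held a fall as large as that of Srebf2 (-0.86). The groups of arrays did not overlap for 4 of the 13 genes, a share of 30.8%, against 44.1% of all genes (20.6% with lymphoma above and 23.5% with lymphoma below). Over all 33 members the groups did not overlap for 9 genes with lymphoma above and 9 with lymphoma below, together 54.5%.

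At the entry to this route, Hmgcs1, the synthase that makes HMG-CoA, had 354 and 352 in the lymphoma samples, against 552 and 389 in the wild type samples. Both lymphoma values were lower, by 0.39 on the log2 scale (SE 0.22, adjusted p = 0.52 in limma), and without wild type array 1 the difference was -0.14. The mevalonate kinase Mvk differed by -0.10, the phosphomevalonate kinase Pmvk by 0.35, the decarboxylase Mvd by -0.16 and the isomerase Idi1 by 0.19. Pmvk had 339 and 192 in the lymphoma samples and 209 and 192 in the wild type samples, so that lymphoma array 1 alone stood apart, and its difference was -0.065 without that array.

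Further along, the farnesyl diphosphate synthase Fdps differed by -0.19 and the squalene synthase Fdft1 by 0.19, and Fdft1 had 1041 and 848 in lymphoma, inside the wider gap of 1108 and 615 in wild type. Sqle, the squalene epoxidase, had 244 and 294 in the lymphoma samples, just under 402 and 301 in the wild type samples, a log2 difference of -0.38 (SE 0.22, adjusted p = 0.53 in limma). The cyclase Lss, which forms lanosterol, differed by 0.032, and the lanosterol demethylase Cyp51 by 0.089. Both had overlapping groups.

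In the last steps Nsdhl, which takes part in removing methyl groups from the sterol ring, differed by 0.0082, and Dhcr7, the reductase that yields cholesterol, by -0.068. Hsd17b7, a ketosteroid reductase, differed by 0.26 (SE 0.35), with 572 on lymphoma array 1 and 278 on lymphoma array 2, against 368 and 303 in the wild type samples. Without lymphoma array 1 the difference of Hsd17b7 was -0.26. Of 5 measured genes of an additional sterol synthesis list, none was called in limma, 0 had an unadjusted p under 0.05, and the largest differences were those of Sc5d (-0.35, adjusted p = 0.48) and Ebp (0.28, adjusted p = 0.64). Their median was -0.0040.

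**Figure D3:**
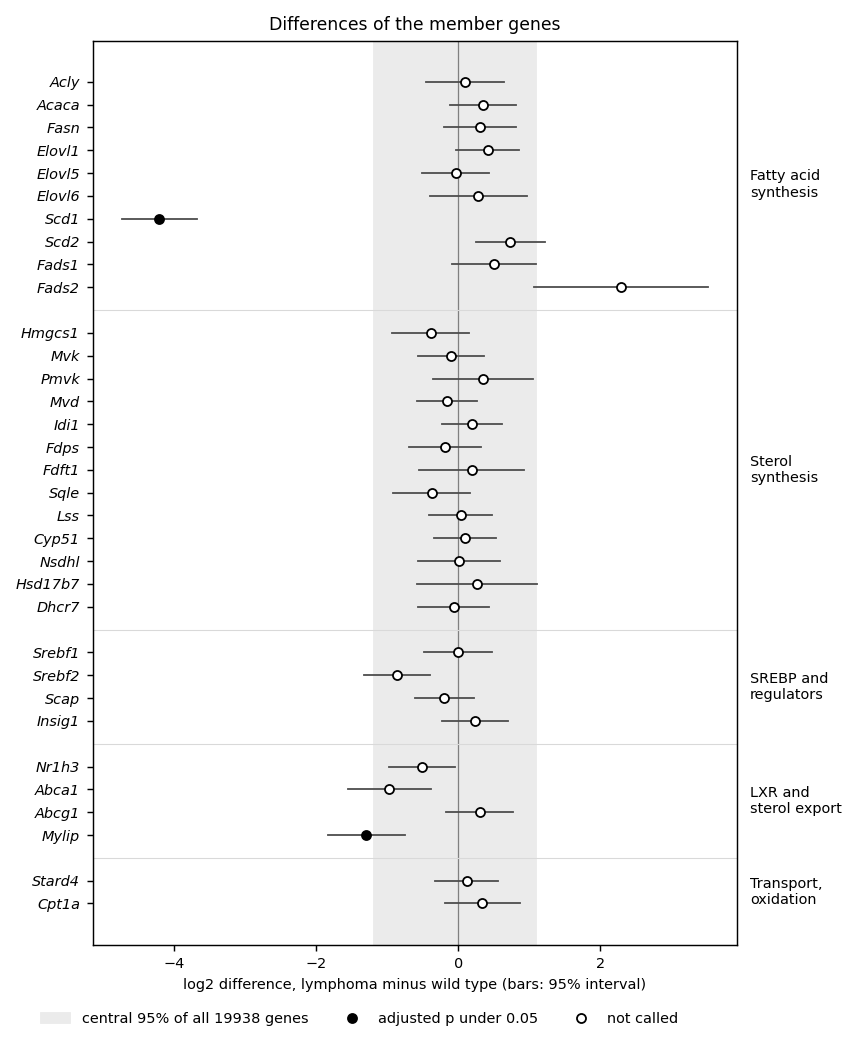
Log2 difference, lymphoma minus wild type (x axis), of each measured gene with its unadjusted 95% interval from limma, filled where the adjusted p was under 0.05; the grey band holds the central 95% of all 19938 genes, from -1.18 to 1.10. Scd1 and Mylip are filled, and the genes of sterol synthesis lie around 0.

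The SREBP genes and the proteins that hold or escort them gave no call among 4 in limma, and 1, Srebf2, had an unadjusted p under 0.05. Srebf1, which encodes the SREBP best known for fatty acid synthesis, had 461 and 579 in the lymphoma samples and 528 and 507 in the wild type samples, with overlapping groups. Its log2 difference was -0.0022 (SE 0.20, 95% interval -0.48 to 0.47). Srebf2, which encodes the SREBP best known for sterol synthesis, had 977 and 1208 in the lymphoma samples, against 2109 and 1847 in the wild type samples. Both lymphoma values were lower, by 0.86 on the log2 scale (SE 0.19, 95% interval -1.32 to -0.40, 1.82-fold), and the adjusted p was 0.070 in limma. It passed under quantile normalization (-0.94, adjusted p = 0.047 in limma) and in no other fit to all 4 arrays. With 1 array left out the difference of Srebf2 lay between -1.01 and -0.71.

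Scap, the escort that carries SREBPs to the Golgi, had 1058 and 1056 in the lymphoma samples and 1275 and 1151 in the wild type samples, a log2 difference of -0.20 (SE 0.17, adjusted p = 0.72 in limma). Insig1, which retains Scap in the endoplasmic reticulum and is itself a target of SREBPs, had 1283 and 1037 in the lymphoma samples and 944 and 1025 in the wild type samples. Its log2 difference was 0.23 (SE 0.19, 95% interval -0.23 to 0.69, adjusted p = 0.70). Of 11 measured genes of an additional list related to SREBPs, none was called and 4 had an unadjusted p under 0.05. These 4 are 36.4% of the list, against 15.6% of all genes. The largest differences there were those of Acss2, a cytosolic acetyl-CoA synthetase (-1.22, SE 0.42, adjusted p = 0.22), and of Tmem97, a sterol-regulated membrane protein (0.68, adjusted p = 0.23). Acss2 stood at log2 7.34 on lymphoma array 1 and 8.67 on lymphoma array 2, against 9.09 and 9.35 in the wild type samples. Dropping lymphoma array 1 brought Acss2 to -0.56, and dropping lymphoma array 2 brought it to -1.89. Each of these fits rests on 1 lymphoma array, so only the size of the difference is given.

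Genes around the LXRs lay mostly on the lower side, and the 1 call among them was Mylip. Mylip encodes a ubiquitin ligase, induced by LXRs in several cell types, that sends lipoprotein receptors for degradation. It had an intensity of 476 and 469 in the lymphoma samples, against 1381 and 975 in the wild type samples. The lymphoma arrays were close to each other and both under the wild type arrays. The log2 level was 8.88 ± 0.015 in lymphoma and 10.18 ± 0.36 in wild type (SD, n = 2 each), a log2 difference of -1.30 (SE 0.22, 95% interval -1.83 to -0.76, 2.46-fold, adjusted p = 0.031 in limma). Without wild type array 1 it was -1.04 (adjusted p = 0.21) and without wild type array 2 it was -1.55 (adjusted p = 0.10).

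Abca1, a pump that loads cholesterol onto lipid-poor apolipoproteins, had 232 and 342 in the lymphoma samples, against 595 and 516 in the wild type samples, so the groups did not overlap. The log2 difference was -0.97 (SE 0.24, 95% interval -1.56 to -0.39, adjusted p = 0.094 in limma). With 1 array left out it lay between -1.25 and -0.70. Abcg1, the transporter that exports sterol to high-density lipoprotein, was not lower. It had 2121 and 1688 in the lymphoma samples and 1418 and 1671 in the wild type samples, a log2 difference of 0.30 (SE 0.20, 95% interval -0.18 to 0.77, adjusted p = 0.60). Nr1h3, which encodes LXR alpha, had 158 and 197 in the lymphoma samples, against 257 and 245 in the wild type samples, a log2 difference of -0.51 (SE 0.19, adjusted p = 0.26). The median of these 4 genes was -0.74, and without lymphoma array 1 it was -0.52.

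Of 13 measured genes of an additional list related to LXRs, 1 was lower and none higher, against 2.46% and 1.82% of all genes. At an unadjusted p under 0.05, 4 were lower and none higher, or 30.8% against 15.6% of all genes. Negative differences were found for 10 of the 13, against 11197 of all 19938 genes, and the median was -0.30. The one call was Pltp, which transfers phospholipids between lipoproteins, with log2 values of 7.86 and 7.70 in the lymphoma samples, against 9.53 and 9.17 in the wild type samples, a log2 difference of -1.57 (SE 0.21, adjusted p = 0.013 in limma). It did not pass without wild type array 1 (adjusted p = 0.15) or wild type array 2 (0.091). Macrophage and monocyte markers were lower on the same arrays, with a median log2 difference of -1.51 over 11 genes, as were dendritic cell markers (-2.54 over 8) and B cell markers (-3.29 over 9). The part of those cells in the differences of Mylip, Abca1, Nr1h3, Pltp and Scd1 was not tested. Adipocyte markers, as another cell type rich in Scd1, had a summed intensity of 432 and 430 in the lymphoma samples and 476 and 489 in the wild type samples over 5 genes, with a median log2 difference of -0.25, none called in limma and 0 at an unadjusted p under 0.05.

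**Figure D4:**
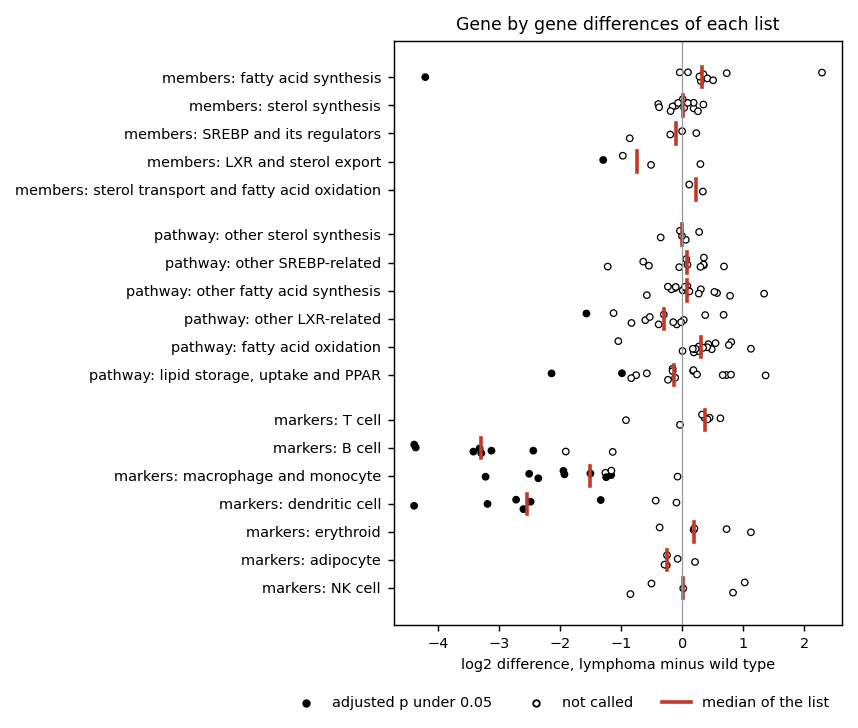
Log2 difference, lymphoma minus wild type (x axis), of each gene (points, filled where the adjusted p was under 0.05, moved up or down at random within a row for visibility) in the member groups, the additional pathway lists and the cell type marker lists; red bars are the medians. The medians of sterol synthesis lie at 0.0082 and -0.0040, and those of B cell, macrophage and dendritic cell markers lie between -3.29 and -1.51.

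Stard4, a carrier of sterol between membranes, had 230 and 275 in the lymphoma samples and 227 and 239 in the wild type samples, a log2 difference of 0.11 (SE 0.18) with overlapping groups. Cpt1a, the gate of fatty acid entry into mitochondria for oxidation, had 1658 and 1534 in the lymphoma samples and 1503 and 1058 in the wild type samples, a log2 difference of 0.34 (SE 0.22, adjusted p = 0.59 in limma). Both lymphoma values of Cpt1a lay above both wild type values, and the difference was 0.085 without wild type array 2 and 0.59 in the absence of wild type array 1.

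The other fatty acid oxidation genes lay mostly on the positive side. Of 16 measured, none was called and 4 had an unadjusted p under 0.05, or 25% against 15.6% of all genes. Positive differences were found for 15 of the 16, against 8741 of all 19938 genes, and the median was 0.31. The largest differences were those of Decr1 (1.13, adjusted p = 0.33 in limma) and Acaa2 (-1.05, adjusted p = 0.11), enzymes of mitochondrial fatty acid breakdown. Decr1 stood at log2 10.04 on lymphoma array 1 and 8.49 on lymphoma array 2, against 8.14 and 8.13 in the wild type samples. Dropping lymphoma array 1 brought Decr1 to 0.35 and Acaa2 to -1.41. Dropping lymphoma array 2 brought them to 1.90 and -0.69. Each of these fits again rests on 1 lymphoma array. The T cell markers had a median log2 difference of 0.37 over 7 genes on the same arrays. They were not uniform, with 5 positive and 2 negative, and Cd5 was the lowest (-0.92, adjusted p = 0.11 in limma).

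Among 17 measured genes of an additional fatty acid synthesis list none was called, and the median was 0.085. An unadjusted p under 0.05 was found for 5, or 29.4% against 15.6% of all genes. The largest differences were those of Hacd3, a dehydratase of the elongation cycle (1.34, SE 0.35, adjusted p = 0.11 in limma), and Acsl5, which activates fatty acids with CoA (0.78, SE 0.19, adjusted p = 0.089). With 1 array left out the difference of Hacd3 lay between 0.81 and 1.88 and that of Acsl5 between 0.65 and 0.91. Of 16 measured genes of lipid storage, uptake and the PPAR receptors, 2 were lower and none higher, against 2.46% and 1.82% of all genes. At an unadjusted p under 0.05, 5 were lower and 2 higher, or 43.75% against 15.6% of all genes. The fatty acid receptor Cd36, also abundant on macrophages, had log2 values of 5.13 and 4.69 in the lymphoma samples, against 7.31 and 6.80 in the wild type samples, a log2 difference of -2.14 (SE 0.25, adjusted p = 0.0099 in limma). Its lymphoma intensities of 35 and 26 lay under the lower quartile of those arrays (56 and 54). The coactivator Ppargc1a fell by 0.99 log2 units (SE 0.17, adjusted p = 0.031 in limma), a call that was lost with its probe sets averaged (-0.82, adjusted p = 0.077), and neither gene passed without one of the wild type arrays. Ppargc1a also lay under that quartile in lymphoma, at 43 and 46. How far either gene lies above background is unknown.

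Promoter sequence was set beside these values. RefSeq promoter windows (250 bases before to 50 after a start, build GRCm38.p6) were matched by symbol for 26 of the 34 genes, not including Scd1, Scd2, Fads1, Fdps, Fdft1, Sqle, Abcg1 and Stard4. Letters were searched on both strands. The SRE-like motif TCACNCCAC, which resembles sites bound by SREBPs, stood in a window of 1 of the 26 genes, Hmgcs1, and in 1.44% of all genes with a window. The NF-Y box CCAAT, bound by a factor that works with SREBPs, stood in 19 of the 26, among them all 10 matched sterol synthesis genes and 1 of 4 LXR and sterol export genes, and in 41.1% of all genes. The LXR-type motif, a direct repeat of AGGTCA with 4 bases between the copies, was in none of the 26 and in 0.0148% of all genes, and the GC box GGGCGG was in 19 of the 26 and in 38.2% of all genes. A match describes letters in this window, and no match says only that these letters are not there.

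The 250 bases before the start are shown for Mylip, the called gene with a window, and for Hmgcs1, the gene with the SRE-like match, both on the + strand, at chr13:45389492-45389741 for Mylip and at chr13:119690101-119690350 for Hmgcs1. Capitals mark SRE-like and NF-Y box matches, NF-Y boxes reading ATTGG where they lie on the opposite strand.
Mylip: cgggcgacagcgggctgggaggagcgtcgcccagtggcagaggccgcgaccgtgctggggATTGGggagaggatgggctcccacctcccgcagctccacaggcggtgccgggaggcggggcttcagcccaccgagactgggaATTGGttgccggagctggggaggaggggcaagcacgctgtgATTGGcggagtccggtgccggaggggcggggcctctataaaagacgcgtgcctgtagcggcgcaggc
Hmgcs1: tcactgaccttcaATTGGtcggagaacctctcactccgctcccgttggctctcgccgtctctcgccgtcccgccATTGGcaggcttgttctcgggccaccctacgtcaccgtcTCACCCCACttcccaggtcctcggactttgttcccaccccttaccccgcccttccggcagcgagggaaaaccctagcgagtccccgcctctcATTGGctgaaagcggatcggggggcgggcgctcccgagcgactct
Mylip held 3 NF-Y boxes, the nearest of which began 67 bases before the start, and no SRE-like match. Hmgcs1 held 3 NF-Y boxes in this stretch and its SRE-like match began 137 bases before the start. The log2 differences were -1.30 for Mylip, shown because it was called in limma, and -0.39 for Hmgcs1, which was not called. A link of these letters to the differences was not tested.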

How the data were processed

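The deposited intensity values, linear and 1 for each probe set of an array, were made by the authors with Affymetrix Expression Console, per the submitters' processing notes, with summarisation, normalization and background correction not given in the sources used here. Of 35556 probe sets, 21789 had 1 gene symbol in GEO's platform annotation, 1621 had several and 12146 were not listed. The first gave 19938 genes, 1 probe set each, and log2 was taken with no pseudocount or filter.

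The fit of lymphoma against wild type was made with limma 3.58.1 under R 4.3.3. Its design held the group alone, its eBayes step a trend of variance on level, and two-sided p-values were adjusted by Benjamini-Hochberg over 19938 genes (2 residual and 4.24 prior degrees of freedom, median SE 0.20 log2 units). Intervals are unadjusted. The number of arrays limits the precision. The procedure was tested on simulated data. Members and lists were chosen with earlier results of these data known, so no list is independent support and none was tested as a set. All members are named, as are up to 4 called genes of each additional list by size, or 2 as values where none was called. Alternatives were other scalings, a filter, 16 added before log2, other variance models, the mean over probe sets, a block on replicate number, leaving out each array and an adjusted p under 0.1. Promoters are RefSeq's. Figures were drawn with matplotlib 3.10.9.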

Additional observations from a re-analysis of the deposited data

How the results depend on the processing

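Under the settings that kept all 4 arrays, 260 of 264 member differences kept their direction and their side of the threshold. The exceptions were Srebf2, which passed under quantile normalization, and Lss (-0.058) and Nsdhl (-0.080) under that normalization and Srebf1 (0.036) with array medians subtracted, which changed sign close to 0. At an adjusted p under 0.1, 1 member was higher (Fads2) and 4 were lower (Scd1, Mylip, Srebf2 and Abca1). Leaving out 1 array gave 0 to 1 members higher and 0 to 4 lower, with 0 lower in both fits that lacked a wild type array. The member median then lay between -0.032 and 0.16, that of sterol synthesis between -0.20 and 0.13, and that of LXR and sterol export between -0.96 and -0.52. Signs changed in these fits for Acly (-0.17 to 0.36), Elovl5 (-0.24 to 0.16), Elovl6 (-0.090 to 0.65), Mvk (-0.25 to 0.039), Pmvk (-0.065 to 0.76), Fdps (-0.40 to 0.017), Fdft1 (-0.24 to 0.61), Lss (-0.065 to 0.13), Cyp51 (-0.025 to 0.20), Nsdhl (-0.21 to 0.22), Hsd17b7 (-0.26 to 0.78), Dhcr7 (-0.25 to 0.11), Srebf1 (-0.17 to 0.16), Stard4 (-0.016 to 0.24), Scd3 (-0.012 to 0.21) and Scd4 (-0.45 to 0.092). In such fits 1 array stands for its group and is assumed to vary like the other group, and the cause of these shifts was not tested.

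Samples of the 2 groups share the numbers 1 and 2, and deviations of same-numbered arrays from their group means correlated at r = 0.23 over 19938 genes. With the replicate number as a block, 0 members were higher and 2 lower, and over all genes 429 rose and 555 fell, against 362 and 490 without it. The block cannot move a log2 difference or a median in this balanced design, so it bears on the calls alone. Nothing in the labels says that a number marks a shared animal or day. Signal over background could not be judged for Scd1 in lymphoma, or for dimmer genes such as Cd36 and Ppargc1a.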
